A study of Homo sapiens with 24 samples.

Results

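PAX8 depletion by one RNAi construct, shPAX8-2, was measured by RNA-seq in 786-M1A cells against cells labelled sgNTC18. The comparison rests on 8 libraries, 4 of each kind, chosen by their labels from the 24 libraries of the series. 786-M1A is a metastatic derivative of 786-O, a VHL-mutant clear cell renal cell carcinoma (ccRCC) line, and carries a luciferase transgene. All 8 libraries come from this 1 cell line, and the labels name no strain, drug or time point that differs between them. The shPAX8-2 cells expressed a short hairpin RNA from a plasmid that the methods describe as doxycycline-inducible, and the labels state neither doxycycline nor its duration. By its name sgNTC18 is a non-targeting CRISPR guide, so the groups differ in the kind of construct as well as in its target. The sgNTC18 libraries may also come from another experiment than the shPAX8 libraries, and no library with a non-targeting hairpin was analysed here. An effect of PAX8 depletion, of the hairpin as such and of a different experiment cannot be told apart in any value against sgNTC18. The labels do not say that replicates are separate cultures, so p-values measure only the spread between these libraries.

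PAX8 is a paired-box transcription factor of the developing kidney, thyroid and Müllerian tract that stays expressed in adult renal tubular cells and in most renal carcinomas. In ccRCC, loss of VHL stabilizes HIF2A, encoded by EPAS1, which drives hypoxia-type transcription without hypoxia. The study followed PAX8 and HIF2A at regulatory elements near MYC and CCND1, a cell cycle gene, and also named MYEOV, a neighbour of CCND1.

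The guide strands of both PAX8 hairpins and their sites in PAX8 are shown because the constructs differ in what they bind. Both were read from the study's list of hairpins and matched to GRCh38, 5′ to 3′, with the seed (bases 2 to 8 of the guide) or its site in capitals.
shPAX8-2 guide: tAGAGTTGtgttaataatggag
shPAX8-2 site: ctccattattaacaCAACTCTa
shPAX8-1 guide: tGTGAGTCaatgcttagtcggc
shPAX8-1 site: gccgactaagcattGACTCACa
The shPAX8-2 site lies at chr2:113218122-113218143 on the minus strand, in the last exon and 3′ UTR of 7 of 14 annotated PAX8 transcripts. The shPAX8-1 site lies at chr2:113241690-113241711 on the same strand, in 10 of the 14 transcripts and in the 3′ UTR of 0 of them.

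Depth was 11634419 to 18218051 estimated counts per shPAX8-2 library and 17808799 to 31140267 per sgNTC18 library. Across genes, log2 CPM (counts scaled to a common library total) correlated at 0.982 to 0.992 within sgNTC18, at 0.981 to 0.994 within shPAX8-2 and at 0.870 to 0.898 between the groups. The shPAX8-2 libraries 1 and 2 resembled each other more than libraries 3 and 4, so CCND1, whose call depended on that split, is given both ways. TMEM189-UBE2V1, a readthrough gene singled out after its values were seen, had 0 counts in all 8 sgNTC18 libraries of both cell lines and 747 to 3687 counts in the 16 shPAX8 libraries. In 786-M1A it had 4362 counts over the shPAX8-2 libraries, at least 2257-fold more than a floor of 3 counts over the sgNTC18 libraries after scaling for depth. OR2A20P, also chosen after its values were seen, had 0 counts in the 786-M1A sgNTC18 libraries and 60 to 385 in those of shPAX8-2, at least 464-fold more. In OS-LM1 it did not separate the groups, with 0, 0, 55 and 0 counts in the shPAX8-2 libraries and 0 in those of sgNTC18. Of 20 markers of other cell types, 4 passed the filter on low counts, and CD14, LYZ and LUM were called higher with shPAX8-2. CD3E, CDH5, HBB, HBA1, MYH6 and KIT were at 0 in all 8 libraries. The summed TPM of the 20 was 185 to 234 in sgNTC18 and 207 to 279 in shPAX8-2, mostly from PDGFRB, and the part of other cells in the results was not tested.

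PAX8 itself (chr2:113215997-113278921) had 296, 398, 364 and 326 CPM in the sgNTC18 libraries and 42.8, 47.2, 44.01 and 41.5 CPM in the shPAX8-2 libraries. Every shPAX8-2 library lay far below every sgNTC18 library. The mean fell from 346 ± 44.5 to 43.9 ± 2.42 CPM (SD, n = 4 each), 7.88-fold, with a log2 fold change of -2.98 (SE 0.11, adjusted p = 1.98e-12 in edgeR's quasi-likelihood test with Benjamini-Hochberg adjustment, as for every adjusted p that follows). In such bulk libraries, less PAX8 in each cell and fewer cells with PAX8 cannot be told apart.

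MYEOV, upstream of CCND1 on chromosome 11, had 131, 153, 141 and 142 CPM with sgNTC18 and 56.6, 59.8, 45.1 and 54.7 CPM with shPAX8-2. Its groups did not overlap, and it was lower by a log2 fold change of -1.39 (SE 0.10, adjusted p = 4.93e-09). CCND1, which encodes cyclin D1, did not follow its neighbour. It had 632, 637, 647 and 607 CPM with sgNTC18 and 964, 979, 748 and 679 CPM with shPAX8-2. All shPAX8-2 libraries were above the sgNTC18 libraries, but libraries 1 and 2 much further than 3 and 4. The log2 fold change of CCND1 was 0.42 (SE 0.11, adjusted p = 0.00265), below the minimum of 0.58 that a called change needed, and became 0.63 without libraries 3 and 4 and 0.16 without libraries 1 and 2 (adjusted p = 3.56e-06 and 0.133).

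MYC, the growth regulator, had 103, 122, 127 and 111 CPM with sgNTC18 and 153, 163, 153 and 151 CPM with shPAX8-2. The groups did not overlap, with the shPAX8-2 libraries higher, and the log2 fold change of 0.42 (SE 0.09, adjusted p = 0.000487) was also below the fold minimum. EPAS1, encoding HIF2A, had 207, 192, 221 and 199.9 CPM against 608, 655, 462 and 467 CPM. It rose 2.67-fold, a log2 fold change of 1.42 (SE 0.11, adjusted p = 1.59e-08), and its shPAX8-2 libraries split like those of CCND1, with 1 and 2 above 3 and 4. An exact permutation test of log2 CPM gave a two-sided p of 0.0286 for each of these 5 genes, also after adjustment over the 5, which is the smallest that 4 against 4 libraries allow.

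**Figure D1:**
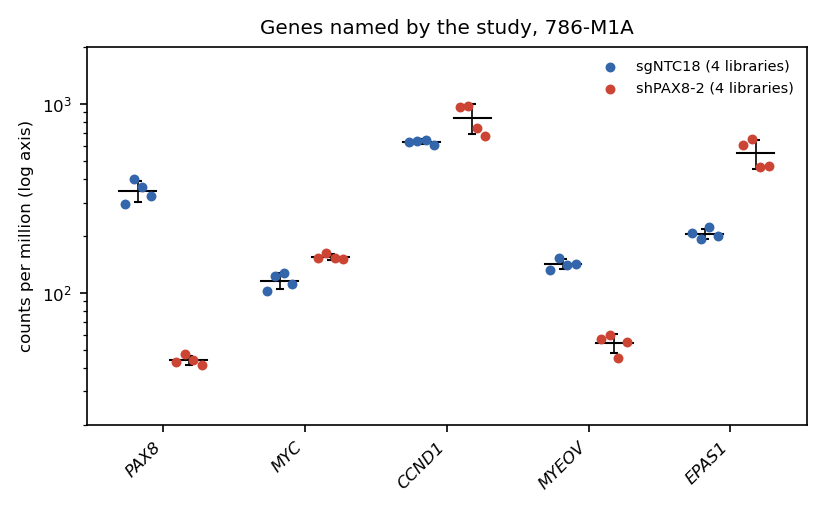
CPM (log axis) of PAX8, MYC, CCND1, MYEOV and EPAS1 in each sgNTC18 (blue) and shPAX8-2 (red) library of 786-M1A, with the mean and SD of 4 libraries as black lines. PAX8 and MYEOV sit lower with shPAX8-2, EPAS1 sits higher, and MYC and CCND1 have log2 fold changes of 0.42 each, under the fold minimum.

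Over all 14049 genes that passed the filter, 3411 (24.3%) were called higher and 3459 (24.6%) lower with shPAX8-2, where a call needed an adjusted p under 0.05 and an absolute log2 fold change over 0.58. A log2 fold change above 2 was reached by 512 of those called higher, and one below -2 by 368 of those called lower. The counts given below for gene lists are to be read against these shares. With limma on the deposited TPM, 37.3% of called genes were higher, against 49.7% in the edgeR comparison, and the median log2 fold change of all genes shifted to -0.13.

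**Figure D2:**
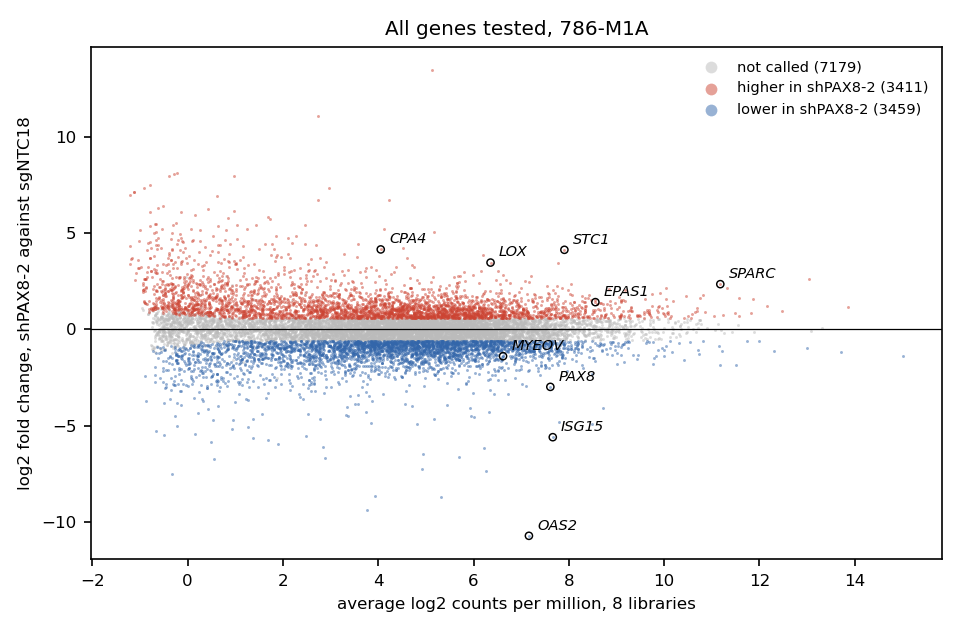
Log2 fold change of shPAX8-2 against sgNTC18 (vertical axis) against the average log2 CPM of the 8 libraries (horizontal axis) for 14049 genes in 786-M1A, with called genes in red (3411 higher) and blue (3459 lower). OAS2 and ISG15 lie low, at -10.70 and -5.59, and STC1 and LOX lie high, at 4.13 and 3.47.

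The largest falls among abundant genes were in the interferon response. Interferons act through JAK kinases on a transcription factor complex that includes IRF9, which binds interferon-stimulated response elements and switches on antiviral genes. Of 47 interferon-stimulated genes tested, 43 were lower and 0 higher with shPAX8-2, against 24.6% of all genes lower, and their median log2 fold change was -3.15 where that of all genes was 0.01. The fall exceeded 2 on the log2 scale in 32 of them and 4 in 20. All 12 abundant genes with the largest falls are known interferon-stimulated genes.

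IRF9, the DNA-binding subunit of the complex, fell from 35.9 ± 3.84 to 12.02 ± 1.73 CPM (SD, n = 4; log2 fold change -1.57, adjusted p = 1.77e-08). Among effectors, OAS2, a sensor of double-stranded RNA, had 326, 276, 282 and 254 CPM with sgNTC18 and 0.118, 0.112, 0.171 and 0.277 CPM with shPAX8-2. OAS2 was thus abundant in every sgNTC18 library and near the limit of detection in every shPAX8-2 library, and its fitted log2 fold change was -10.70 (SE 0.19, adjusted p = 9.26e-16).

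ISG15, a ubiquitin-like modifier, had 373, 426, 393 and 389 CPM with sgNTC18 and 8.95, 7.32, 6.08 and 10.3 CPM with shPAX8-2. This is a 48.1-fold fall (log2 fold change -5.59, SE 0.14, adjusted p = 2.42e-14). IFI6, an antiviral membrane protein, had 656, 733, 651 and 708 CPM against 20.8, 20.4, 23.8 and 27.1 CPM (log2 fold change -4.90, SE 0.11, adjusted p = 1.5e-14). CMPK2, a mitochondrial nucleotide kinase, had 28.3, 25.9, 24.5 and 23.7 CPM with sgNTC18 and 0, 0, 0 and 0.138 CPM with shPAX8-2. IFI44L, OAS1, IFI27 and MX2 had log2 fold changes of -8.69, -7.34, -6.62 and -6.14, each without overlap. The 4 members not called were IRF1 (-0.55), GBP2 (-0.51), GBP3 (-0.12) and TRIM5 (0.22), of which IRF1 passed the adjusted p but not the fold minimum.

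**Figure D3:**
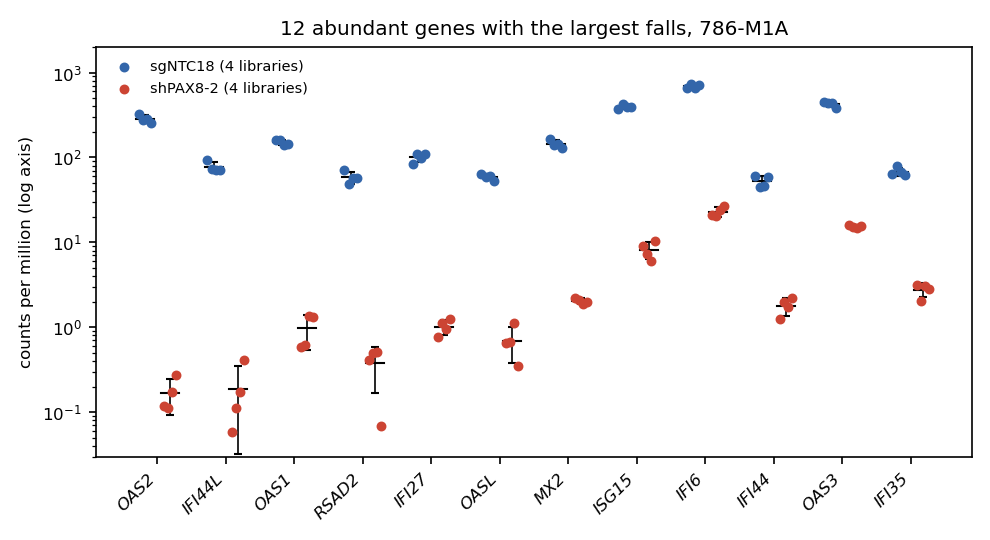
CPM (log axis) in each sgNTC18 (blue) and shPAX8-2 (red) library of the 12 genes with the largest falls among called genes with an average log2 CPM of at least 4, with mean and SD (n = 4) in black. All 12 are interferon-stimulated genes whose groups are separated in every library, from OAS2 at 284 against 0.169 CPM to IFI35 at a log2 fold change of -4.63.

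The core of an interferon-stimulated response element can be written as GAAA, any 2 bases, GAAA. Its occurrence in promoters (250 bases before to 50 after the start, RefSeq, GRCh38.p14, either strand) was counted as a description of the list. It was in 24 of 37 interferon-stimulated genes with a promoter sequence (64.9%), against 335 of 11131 (3.01%) of all tested genes. It was also in 7 of 13 MHC class I genes (53.8%), in 0 of 37 DNA replication genes and in 3 of 32 proteasome genes (9.38%). For some of the genes with a match, 30 bases around the first match are shown in the direction of the gene, with the match in capitals.
IFI44L, chr1:78620274-78620303, plus strand: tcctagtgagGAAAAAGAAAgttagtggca
IFI27, chr14:94110631-94110660, plus strand: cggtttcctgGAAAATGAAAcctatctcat
ISG15, chr1:1013374-1013403, plus strand: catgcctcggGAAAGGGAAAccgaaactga
IFI6, chr1:27672329-27672358, minus strand: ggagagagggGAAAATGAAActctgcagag
OAS3, chr12:112938321-112938350, plus strand: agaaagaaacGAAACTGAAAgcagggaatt
MX1, chr21:41420559-41420588, plus strand: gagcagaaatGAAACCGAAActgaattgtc
BST2, chr19:17405741-17405770, minus strand: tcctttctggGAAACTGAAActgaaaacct
Their log2 fold changes were -8.69, -6.62, -5.59, -4.90, -4.80, -3.85 and -0.73 in the same order. BST2, an antiviral membrane tether with the same letters as OAS3 in its match, had the smallest fall of the 7, with 468, 504, 549.9 and 512 CPM against 271, 282, 288 and 386 CPM. GBP3 and TRIM5, which were not called, also held a match. OAS2, which had the largest fall of the list, and OAS1, MX2 and CMPK2 were not among the 24 genes with a match. Only 37 of the 47 tested genes had a promoter sequence, so absence from the 24 does not show that a promoter lacks the element.

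Antigen presentation fell with the interferon genes. MHC class I molecules display peptides cut by the proteasome and carried into the endoplasmic reticulum by TAP. Of 17 genes of this pathway, 12 were lower and 2 higher (24.6% and 24.3% of all genes), with a median log2 fold change of -1.34. HLA-B, a heavy chain, had 1767, 2259, 2186 and 2009 CPM with sgNTC18 and 713, 717, 545 and 716 CPM with shPAX8-2 (log2 fold change -1.61, SE 0.11, adjusted p = 1.83e-09). HLA-F, HLA-C, TAP1 and the immunoproteasome subunit PSMB9 were lower by -2.26, -1.34, -1.60 and -2.07. B2M, the shared light chain, had a smaller difference, -0.48, that missed the fold minimum. The 2 higher genes were the folding factors PDIA3 (log2 fold change 0.97) and CALR (0.77), chaperones of the endoplasmic reticulum that also serve other proteins. Reads of HLA genes may be shared between near-identical genes, so their separate values are uncertain. Of 37 proteasome subunits, 31 were lower and 0 higher, with a median of -1.03, and the list shares its immunoproteasome subunits with that of antigen presentation. PSMC3, an ATPase of the regulatory particle, fell from 147 ± 4.83 to 38.3 ± 4.07 CPM (SD, n = 4; log2 fold change -1.94, SE 0.10, adjusted p = 8.23e-11).

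**Figure D4:**
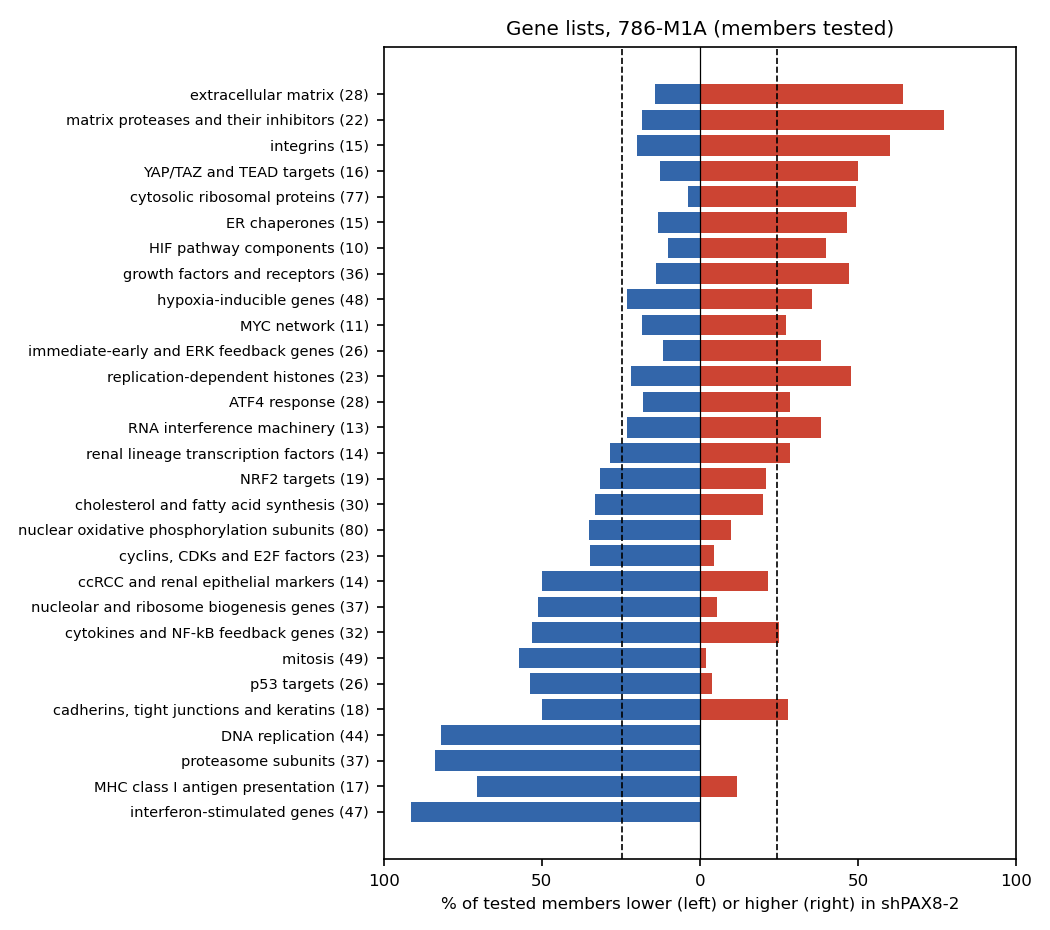
Share of tested members of each gene list with at least 10 tested members that was called lower (blue, left) or higher (red, right) with shPAX8-2 in 786-M1A, in order of the median log2 fold change and with the number tested in brackets. Dashed lines mark the shares of all genes (24.6% lower and 24.3% higher). Interferon-stimulated genes, proteasome subunits and DNA replication genes extend furthest left in this plot, and matrix proteases and extracellular matrix furthest right.

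Cell cycle genes were mostly lower. Proliferating cells raise E2F-driven replication genes before S phase and a separate mitotic set before division. Of 44 DNA replication genes 36 were lower and 0 higher, with a median log2 fold change of -0.997, and of 49 mitotic genes 28 were lower and 1 higher, with a median of -0.66. TK1, thymidine kinase, had 260.1, 337, 328 and 302 CPM with sgNTC18 and 71.2, 80.5, 71.2 and 87.9 CPM with shPAX8-2 (-1.98, SE 0.11, adjusted p = 1.82e-10). Every shPAX8-2 library was far below the sgNTC18 libraries. MYBL2, a transcription factor of late cell cycle genes, fell from 281 ± 28.5 to 54.8 ± 2.96 CPM (SD, n = 4; -2.36, SE 0.10). The only mitotic gene called higher was TTK, a spindle checkpoint kinase (0.63, SE 0.15, adjusted p = 0.00156). Letters of an E2F site, TTTCCCGC or TTTGGCGC on either strand, were in 16 of 37 DNA replication promoters (43.2%) and 2 of 41 mitotic promoters (4.88%), against 3.63% of all tested genes.

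Among the regulators, 8 of 23 cyclin, CDK and E2F genes were lower and 1 was higher. CCND3, cyclin D3, fell from 137 ± 18.5 to 32.9 ± 2.99 CPM (SD, n = 4; -2.06, SE 0.11, adjusted p = 2.27e-10), while CCND1 stood at 0.42 as described. E2F1 fell by 1.47 on the log2 scale and E2F2 by 1.67, and E2F7, a repressor of the family, rose by 0.71. Of the CDK inhibitors, CDKN2C (p18) had 51.3, 59.2, 58.8 and 53.3 CPM against 10.9, 13.9, 13.3 and 15.98 CPM and was lower by -2.04. CDKN1A (p21) had 668, 755, 747 and 694 CPM against 435, 442, 395 and 441 CPM and was lower by -0.74 (SE 0.08, adjusted p = 5.39e-07). CDKN1B (p27) differed by -0.10 (adjusted p = 0.38), CDKN1C (p57) rose by 3.26 from a very low level, and CDKN2A and CDKN2B, which lie in a region known to be deleted in 786-O, did not pass the filter. Of 26 p53 target genes 14 were lower and 1, TP53INP1, was higher. GADD45A, a stress sensor, had 80.0, 94.3, 98.4 and 94.9 CPM against 23.5, 24.2, 25.8 and 26.3 CPM (-1.88, SE 0.10).

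The transcription factors of the renal lineage did not move as a group. Of 14 tested, 4 were higher and 4 lower, including PAX8 itself, with a median log2 fold change of 0.01. LHX1, an early kidney factor, had 20.2, 27.8, 23.9 and 23.8 CPM with sgNTC18 and 5.06, 5.70, 5.56 and 5.53 CPM with shPAX8-2 (-2.13, SE 0.13, adjusted p = 9.24e-10). IRX3 was lower by -0.78. NR2F2, NR2F1, SIM1 and TFAP2A were higher by 0.77, 0.80, 0.87 and 1.07. PAX2, the paralogue of PAX8, had 10.6, 15.4, 12.6 and 11.02 CPM against 15.5, 13.7, 13.6 and 12.8 CPM, which overlap (0.17, adjusted p = 0.27). SALL1, WT1, HNF4G and MECOM were not called either. Of 14 ccRCC and renal epithelial markers, which include PAX8 and EPAS1, 7 were lower and 3 higher. CDH6, a kidney cadherin, had 264, 215, 243 and 244 CPM against 30.4, 25.9, 32.8 and 38.3 CPM, a 7.61-fold fall close in size to that of PAX8 (-2.93, SE 0.12, adjusted p = 8.65e-12). CA9 and NDUFA4L2, HIF-driven markers of the disease, did not pass the filter in these cells.

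Of 10 HIF pathway components 4 were higher, 1 was lower and 5 were not called, with a median log2 fold change of 0.51. Over all genes 24.3% were higher and 24.6% lower. The targets of the pathway were divided. Besides EPAS1, its partner ARNT rose by 1.13 on the log2 scale (45.5, 44.2, 42.5 and 43.3 CPM against 107, 102, 91.2 and 83.0 CPM). HIF1A, whose protein 786-O cells are known to lack, was low in both groups and rose from 8.60 to 16.1 CPM (0.90, SE 0.12, adjusted p = 3.4e-06). EGLN2, a prolyl hydroxylase that marks HIF for destruction, fell by 1.06. Of 48 hypoxia-inducible genes 17 were higher and 11 lower, with a median of 0.39. STC1, a secreted glycoprotein, had 26.7, 19.9, 29.4 and 27.5 CPM against 484, 462, 503 and 371 CPM (4.13, SE 0.13, adjusted p = 7.05e-13). LOX, which cross-links collagen, had 13.96, 14.5, 13.1 and 13.1 CPM against 162, 166, 139 and 138 CPM (3.47, SE 0.10). Among the lower members were PGAM1, ENO1 and LDHA, which encode glycolytic enzymes, at -1.78, -1.27 and -1.15.

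Growth and translation genes moved in separate directions. In the MYC network 3 of 11 genes were higher (27.3%, against 24.3% of all genes) and 2 lower (18.2%, against 24.6%). The median of the 11 was 0.23. The 3 higher genes were the MYC antagonists MXI1, MNT and MXD1. MXI1 rose most, from 11.9, 11.6, 13.3 and 13.6 CPM to 104, 106, 97.7 and 88.5 CPM (2.97, SE 0.10, adjusted p = 1.69e-12), MNT by 1.54 and MXD1 by 1.52. MXD3, MXD4 and MGA of the same list were not called higher, and the list reached down to -1.16. Of 37 nucleolar and ribosome biogenesis genes, a class known to respond to MYC, 19 were lower and 2 higher, with a median of -0.60. NME1, a nucleoside diphosphate kinase in that list, had 99.9, 96.4, 106 and 101 CPM against 13.01, 10.8, 20.03 and 20.1 CPM (-2.68, SE 0.16). Cytosolic ribosomal proteins leaned upward, with 38 of 77 higher and 3 lower, and a median of 0.55. RPL23A had 375, 361, 430.3 and 473 CPM against 1369, 1599.9, 1601 and 1476 CPM (1.88, SE 0.10), and RPS26 fell by 1.17. These genes have many processed pseudogenes, so single values are uncertain, and with limma on TPM the number higher was 25. Of 80 nuclear oxidative phosphorylation subunits 28 were lower and 8 higher (median -0.34).

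Matrix genes were mostly higher. Of 22 matrix proteases and their inhibitors 17 were higher and 4 lower, with a median log2 fold change of 0.83. LOX was described above with the hypoxia genes. PLAT, the tissue plasminogen activator, had 3.92, 2.96, 3.51 and 4.39 CPM with sgNTC18 and 10.4, 12.6, 13.1 and 15.9 CPM with shPAX8-2, without overlap (1.81, SE 0.16, adjusted p = 6.58e-08). The collagenases MMP13 and MMP1 were lower, by -3.27 and -1.46. Of 28 extracellular matrix genes 18 were higher and 4 lower (median 0.86). SPARC, a collagen-binding glycoprotein, had 767, 733, 788 and 753 CPM against 3645, 3794, 3892 and 4167 CPM (2.35, SE 0.08, adjusted p = 9.28e-13). FN1, fibronectin, went down, from 6918 ± 439 to 3243 ± 377 CPM (SD, n = 4; -1.09, SE 0.09, adjusted p = 2.57e-08).

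Of 15 integrins 9 were higher and 3 lower. ITGB8, which activates latent TGF-beta, had 155, 116, 133 and 129.8 CPM against 21.2, 19.1, 29.7 and 18.6 CPM (-2.60, SE 0.14), while ITGB4, a hemidesmosome integrin, rose from 0.352 to 9.81 CPM. Of 18 cadherin, tight junction and keratin genes 9 were lower and 5 higher. CLDN2, a claudin of the proximal tubule, had 17.8, 17.7, 19.2 and 16.9 CPM against 0.294, 0.615, 1.28 and 1.25 CPM (-4.45, SE 0.24), and KRT8, a simple epithelial keratin, fell by 1.82. Of 5 mesenchymal genes, the EMT transcription factors and vimentin, 4 were higher. ZEB2 had 41.7, 30.5, 32.7 and 34.4 CPM against 203, 194, 193 and 145 CPM (2.40, SE 0.12, adjusted p = 1.4e-10), SNAI1 rose by 1.76 and ZEB1 by 1.01.

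Other abundant genes with the largest rises were CPA4, a carboxypeptidase (1.81 ± 0.233 to 32.5 ± 6.89 CPM, SD, n = 4), EFEMP1, a fibulin (9.37 ± 1.72 to 139.8 ± 23.1 CPM), and CLU, a secreted chaperone (36.7 ± 1.504 to 404 ± 32.3 CPM). Their log2 fold changes were 4.15, 3.88 and 3.46. The synaptic scaffold gene DLG4, the actin-binding LIMCH1 and the histone demethylase KDM7A rose by 4.22, 3.26 and 3.24. SNHG25, RASA4 and NPIPB11 also ranked among them (5.06, 3.68 and 3.36), but they overlap other genes or have near-identical copies, and their values are uncertain.

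Secreted signals were mixed. Of 36 growth factors and receptors 17 were higher and 5 lower (median 0.45). INHBA, the activin A subunit, had 16.001, 16.4, 17.1 and 12.7 CPM against 112, 122, 146 and 133 CPM (3.04, SE 0.12, adjusted p = 6.54e-12), and TGFB2 rose by 1.70 and IGF1R by 1.42. KITLG and EREG were lower, by -2.31 and -1.79. Of 32 cytokines and NF-kB feedback genes 17 were lower and 8 higher (median -0.64). CSF2, encoding GM-CSF, had 10.4, 15.6, 11.7 and 11.3 CPM against 0.530, 0.447, 0.428 and 0.484 CPM (-4.67, SE 0.22, adjusted p = 4.94e-11). PTGES, the prostaglandin E synthase, fell by 3.29, while C3, a complement component, rose by 2.58. Of 16 YAP/TAZ genes 8 were higher and 2 lower, with CTGF at 35.2, 36.7, 41.2 and 38.4 CPM against 150.3, 136, 164 and 166 CPM (2.02, SE 0.10). Of 26 immediate-early and ERK feedback genes 10 were higher and 3 lower.

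Of 30 cholesterol and fatty acid synthesis genes 6 were higher and 10 lower (median -0.12), with MVK lower by -1.92 and SQLE higher by 0.96. Of 15 endoplasmic reticulum chaperones 7 were higher and 2 lower, with HSP90B1 at 616, 453, 499 and 542 CPM against 1467, 1418, 1896 and 1541 CPM (1.58, SE 0.11). Of 28 genes of the ATF4 response 8 were higher and 5 lower, and of 19 NRF2 targets 4 and 6. Metallothioneins, which bind metal ions, were higher for 3 of 4 tested, and replication-dependent histones for 11 of 23 with 5 lower. The RNA interference machinery, which the hairpin uses, had 5 of 13 genes higher and 3 lower, with AGO2, the slicer, higher by 1.02 and XPO5, the exporter of hairpin precursors, lower by -0.86.

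A hairpin can also repress transcripts that match only its seed. The 7 bases CAACTCT, the site of the shPAX8-2 seed, were in the 3′ UTR of 1730 tested genes. Of these 21.8% were lower and 23.4% higher (median log2 fold change 0.04), against 25.5% and 23.8% of the 10820 genes without it (median -0.01). Genes with a match had longer 3′ UTRs, with a median of 3667 bases against 1650.5. Of 5 equal bins of 3′ UTR length, the third showed the largest margin between genes with and without the match, with medians of -0.21 (281 genes) and 0.03 (2229 genes), and in the bin of the longest 3′ UTRs they were 0.16 (832 genes) and 0.22 (1678 genes).

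The second hairpin gives a comparison free of the sgNTC18 libraries. In the direct test of shPAX8-2 against shPAX8-1 in 786-M1A, 2048 of 14013 genes (14.6%) were higher and 2058 (14.7%) lower with shPAX8-2. Libraries 3 and 4 of shPAX8-1 stood apart from 1 and 2. Correlations across those pairs were 0.968 to 0.978, against 0.987 and 0.989 within them. In all, 4106 genes differed, 6617 without shPAX8-1 libraries 1 and 2, 2070 without 3 and 4, and 1468 without shPAX8-2 libraries 1 and 2. The fold change between the hairpins rose with the GC content of transcripts (rank correlation 0.560 over genes, which share libraries and are no replicates), where shPAX8-2 against sgNTC18 had -0.105.

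PAX8 was depleted less by shPAX8-2. It had 23.5, 22.6, 15.5 and 15.3 CPM with shPAX8-1, all below the shPAX8-2 libraries, and the log2 difference was 1.18 (SE 0.16, adjusted p = 0.000553), or 1.49 and 0.92 without shPAX8-1 libraries 1 and 2 or 3 and 4. MYEOV, EPAS1 and CCND1 were higher with shPAX8-2, by 0.94, 0.77 and 1.09 (adjusted p = 0.00116, 0.00266 and 0.000521). CCND1 had 479, 379, 371 and 352 CPM with shPAX8-1, each below every shPAX8-2 library. MYC was lower with shPAX8-2 by -0.59 (SE 0.11, adjusted p = 0.00262), from 226, 194, 252 and 251 CPM with shPAX8-1, and by -0.45 without shPAX8-1 libraries 3 and 4, below the fold minimum.

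Of 42 interferon-stimulated genes tested between the hairpins, 6 were higher and 7 lower with shPAX8-2, with a median of 0.02, and of 43 tested 9 and 10 without shPAX8-1 libraries 1 and 2 and 5 and 5 without 3 and 4. ISG15 differed by -0.39 (SE 0.22, adjusted p = 0.17), by -0.04 without shPAX8-1 libraries 1 and 2 and by -0.68 without 3 and 4, where it was called lower (adjusted p = 0.0247). IFI6 differed by 0.15 (SE 0.14, adjusted p = 0.43), while OAS2 was lower with shPAX8-2 by -2.20 at levels under 1 CPM in every library of both hairpins. DNA replication genes were higher with shPAX8-2 for 24 of 44 and lower for 1, with a median of 0.62, and for 22 and 3 or 19 and 0 without shPAX8-1 libraries 1 and 2 or 3 and 4. TK1 and MYBL2 were higher by 1.05 and 1.14, and CDKN1A by 1.13. Mitotic genes were lower for 20 of 49 and higher for 3, a difference that rested on shPAX8-1 libraries 3 and 4, since 4 were lower and 2 higher without them. Cholesterol and fatty acid synthesis genes were lower with shPAX8-2 for 24 of 30 and higher for 1 (median -1.10), for 21 without shPAX8-1 libraries 1 and 2 and for 24 without 3 and 4. MSMO1, a sterol oxidase, had 782, 631, 1169 and 1240 CPM with shPAX8-1 against 248, 217, 246 and 213 CPM with shPAX8-2 in the normalization of this comparison (-2.05, SE 0.20, adjusted p = 6.8e-05). ANKRD1, a YAP target, was lower by -2.85 (SE 0.12, adjusted p = 6.86e-07), and TNFSF10, the death ligand TRAIL, higher by 1.68 (SE 0.11, adjusted p = 1.19e-05). ER chaperones were lower for 10 of 15, for 9 without shPAX8-1 libraries 1 and 2 and for 6 without 3 and 4. With the seed match of shPAX8-2, 20.2% of 1726 genes were lower and 9.56% higher than with shPAX8-1, against 14.6% and 15.7% of 10797 genes without it. Genes with the match again had longer 3′ UTRs, with a median of 3652.5 bases against 1654. Neither 3′ UTR length nor the GC content that tracked this comparison was held equal, and the cause was not tested. GC content was likewise not held equal in the values given above for lists and single genes between the hairpins.

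shPAX8-2 was also measured against sgNTC18 in OS-LM1, a metastatic derivative of the ccRCC line OS-RC2, with 4 libraries in each group. There 3423 of 14727 genes (23.2%) were higher and 3718 (25.2%) lower. Of 13409 genes tested in both lines, 1274 were higher in both, which is 41.4% of the 3077 higher in 786-M1A and 42.6% of the 2990 higher in OS-LM1, and 1573 were lower in both, 46.7% of 3368 and 46.5% of 3385. Opposite calls were made for 386 genes higher and 273 lower in 786-M1A. The lines share no library, but both sgNTC18 groups carry the limit stated at the start. Tested directly over 15409 genes, the change was greater in OS-LM1 for 3462 (22.5%) and smaller for 3715 (24.1%), on the signed log2 scale.

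PAX8 fell less in OS-LM1, by 1.71 on the log2 scale (250.05 to 76.5 CPM), and the difference between the lines was 1.26 (SE 0.15, adjusted p = 3.47e-07). CCND1 was -0.38 in OS-LM1 and 0.42 in 786-M1A, neither past the fold minimum, and the difference of -0.81 was called (SE 0.16, adjusted p = 0.000232). MYEOV fell more in OS-LM1 (-2.48, difference -1.11), EPAS1 rose less (0.80, difference -0.63), and MYC rose by 0.94, a difference of 0.50 that missed the fold minimum (adjusted p = 0.00571).

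Of the interferon-stimulated genes, 23 of 45 were lower and 8 higher in OS-LM1, with a median of -0.78. The OS-LM1 sgNTC18 cells started from much lower levels. ISG15 averaged 46.0 CPM and IFI6 27.4 CPM there, against 395 and 687 CPM in 786-M1A, and with shPAX8-2 they averaged 24.5 and 15.5 CPM in OS-LM1. Their falls differed between the lines by 4.67 and 4.07 (adjusted p = 7.3e-16 and 2.6e-16). BST2 had -0.56 in OS-LM1 and -0.73 in 786-M1A, with a difference of 0.16 (SE 0.14, adjusted p = 0.33). CDH6 fell by 2.79 in OS-LM1 and 2.93 in 786-M1A, a difference of 0.12 (SE 0.15, adjusted p = 0.523), and HLA-B by 1.47 and 1.61, a difference of 0.13 (SE 0.14, adjusted p = 0.464). DNA replication and mitotic genes were lower in OS-LM1 for 39 of 44 and 46 of 49.

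Several genes of signalling and adhesion had opposite calls. CDH13, an atypical cadherin, had 185, 161, 187 and 179.7 CPM against 463, 474, 480.3 and 471 CPM in 786-M1A (1.40, SE 0.08), and in OS-LM1 it fell from 9.24 to 0.117 CPM, a difference between the lines of -7.52 (SE 0.20, adjusted p = 9.9e-18). PTGES fell in 786-M1A and rose in OS-LM1, from 3.98 to 32.1 CPM (difference 6.28, SE 0.19). CSF2, ITGB8 and TNFSF10 also went opposite ways, with differences of 6.54, 3.78 and -3.78. CTGF rose in both, but to 2870.5 CPM in OS-LM1 from 49.4 CPM (5.86, difference 3.82, SE 0.14, adjusted p = 7.69e-16). By list, cytokines and NF-kB feedback genes were higher for 28 of 37 in OS-LM1 (median 1.44), where 17 of 32 were lower in 786-M1A, and p53 targets were higher for 10 of 26 and lower for 4.

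**Figure D5:**
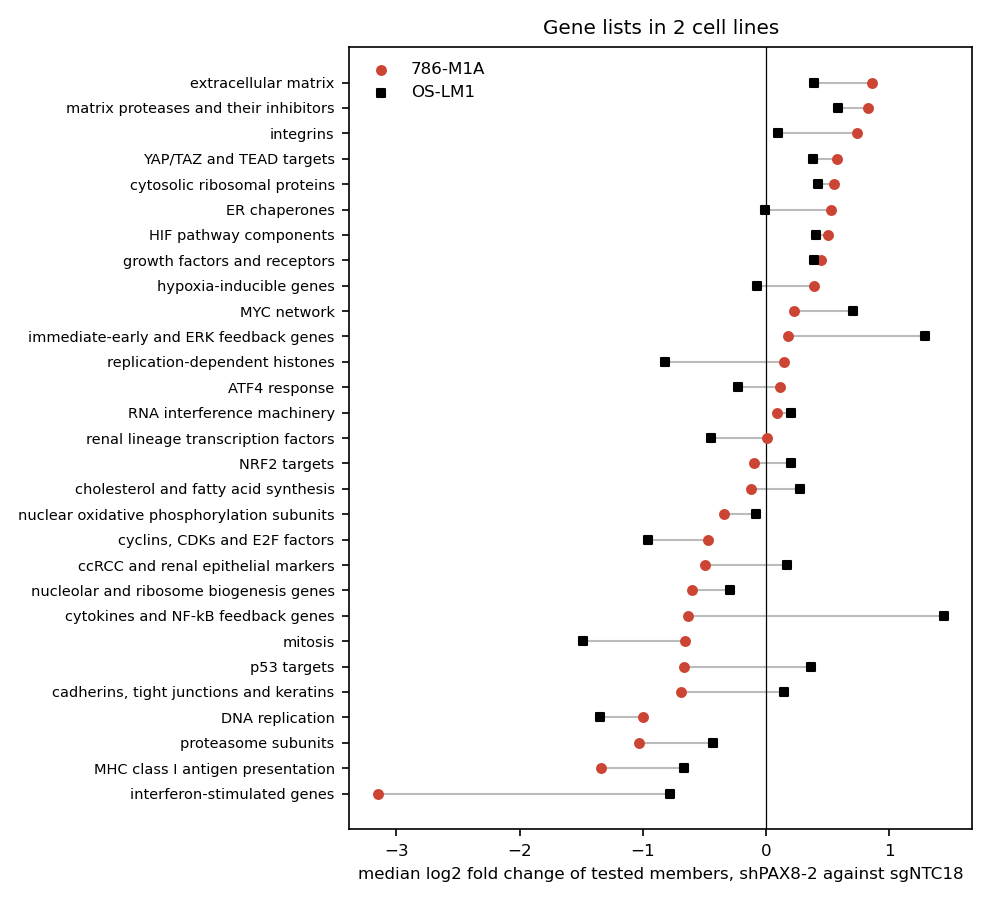
Median log2 fold change of shPAX8-2 against sgNTC18 over the tested members of each gene list with at least 10 tested in 786-M1A, in 786-M1A (red circles) and OS-LM1 (black squares), joined by a line. Interferon-stimulated genes lie at -3.15 in 786-M1A and -0.78 in OS-LM1, cytokines and NF-kB feedback genes at -0.64 and 1.44, and DNA replication genes at -0.997 and -1.35.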

How the data were processed

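RNA-seq values of 786-M1A and OS-LM1 cells were taken as deposited. Per the methods and labels, the authors mapped reads to hg38 and quantified genes with RSEM and bowtie2, and deposited expected counts and TPM for 26475 genes per library. The labels name a KAPA stranded kit and the methods Lexogen kits. RSEM version, annotation release and strand setting are not given in the sources used here. The deposited expected counts were rounded, filtered by filterByExpr, scaled by TMM and tested with the robust quasi-likelihood model of edgeR 4.0.16 in R 4.3.3, with Benjamini-Hochberg adjustment over all genes. CPM use the TMM library sizes of each comparison. A call needed an adjusted p under 0.05 and an absolute log2 fold change over 0.58. The standard error is the absolute log2 fold change over the square root of F. The procedure was also run on counts simulated from its own fitted model with planted changes. Such counts hold neither the library splits nor the control limit of the real data, so they test neither. The deposited TPM, scaled by the authors to each library's effective lengths, entered only limma 3.58.1 as log2(TPM + 0.5), on which scale changes of low genes are understated. DESeq2 1.42.0 was another alternative.

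Groups came from the labels. Named genes were 5 of the study, the 12 each way with the largest change among genes averaging 4 or more on the log2 CPM scale, and from each list up to 3 each way averaging 2 or more, besides all tested members of 4 short lists. Values of a few further list members and genes with opposite calls in OS-LM1 were added after they were seen. Members and lists were chosen with earlier results of these data known. Same-numbered libraries of the groups correlated at 0.03 on average in their deviations (4 pairs, -0.18 to 0.40), other pairs at -0.01, so numbers were not taken as pairs. Replicates of a group always differed by more than counting error (chi-square per gene 3.96 to 26.0), so none was taken as a copy of another. Leaving out pairs of shPAX8 libraries was chosen after seeing the data. Of the genes, 26337 matched RefSeq (GRCh38.p14) and 25453 a GENCODE transcript, used for GC content and 3′ UTRs. Some genes and a control that this rule or the study names are not reported here.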

Additional observations from a re-analysis of the deposited data

Results flagged for a closer look

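The log2 change with shPAX8-2 differed between the lines for these 5 genes named by the study, tested as an interaction and given as OS-LM1 minus 786-M1A: PAX8 by 1.26, MYC by 0.50, CCND1 by -0.81, MYEOV by -1.11 and EPAS1 by -0.63.

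Dixon's test, at the 1 in 20 level, was run on 374 groups. Their genes share libraries, so the number flagged cannot be set against chance. A single library lay far from the other 3 of its group in 17 of the 374 groups. Among the sgNTC18 libraries these were, in CPM, replicate 1 for IFI44L (93.4), PTGES (102), IGFBP6 (28.8), TRIB3 (198), FTL (1620) and MT2A (478), replicate 2 for VLDLR (43.2) and replicate 4 for HIF1A (9.50) and CRELD2 (32.4). Among the shPAX8-2 libraries they were replicate 2 for CDKN1C (1.29), replicate 3 for CDKN1A (395) and MMP1 (3.68), and replicate 4 for CDC45 (11.8), CMPK2 (0.138), F11R (165), CRELD2 (28.6) and NDUFB8 (30.3).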

How the results depend on the processing

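The 5 genes of the study kept their direction under every alternative run. The share of called genes that was higher, 49.7%, was 51.5% with upper-quartile normalization, 53.1% with the GC trend removed and 37.3% with limma on TPM, so the larger of the higher and lower counts depended on the setting. Leaving out 1 library at a time gave 6716 to 7017 changed genes (3260 to 3450 higher, 3413 to 3619 lower), and log2 fold changes of -3.06 to -2.91 for PAX8, 0.35 to 0.46 for MYC, 0.34 to 0.49 for CCND1, -1.44 to -1.32 for MYEOV and 1.32 to 1.48 for EPAS1. It gave 3117 to 5248 genes between the hairpins, 6914 to 7439 in OS-LM1 and 6934 to 7356 between the lines. With no fold minimum MYC (0.42) and CCND1 (0.42) were called. In limma on TPM the log2 fold change was 0.27 for MYC and 0.25 for CCND1. There MYC passed the adjusted p threshold and CCND1 did not (adjusted p = 0.00953 and 0.0737 in limma's moderated t-test). An absolute log2 fold change over 1 left 3791 changed genes (1930 higher, 1861 lower), 1400 between the hairpins, 3944 in OS-LM1 and 4420 between the lines, and an adjusted p under 0.01 left 2610 between the hairpins, as stricter thresholds must. Without shPAX8-2 libraries 1 and 2 there were 1468 between the hairpins, without shPAX8-1 libraries 1 and 2 there were 6617, and without shPAX8-1 libraries 3 and 4 there were 2070. CCND1 was called without shPAX8-2 libraries 3 and 4 (0.63). The cause was not tested. With the replicate block 6842 genes changed (3380 higher, 3462 lower), with 4346 between the hairpins, 6987 in OS-LM1 and 6969 between the lines, and no call among the 5 genes changed. DESeq2 gave 6788, 4224, 7101 and 7284. Over the 182 named genes, with 17 alternatives and each single library left out, 4427 of 4546 values kept direction and call, 107 lost the call, 12 gained it and 0 reversed. The list of cyclins, CDKs and E2F factors had 13 rather than 8 lower with limma on TPM. Genes at a few counts per library, such as CDKN1C and CMPK2, are limited by depth.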
